A study of Mus musculus with 5 samples.

Results

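The immunoproteasome and the MHC class I antigen processing genes were followed through the fusion of mouse embryonic stem cells with hepatoma cells and through differentiation of the resulting ES-Hepa hybrids. The set holds 10 genes, Psmb8, Psmb9, Psmb10, Psme1, Psme2, Tap1, Tap2, Tapbp, B2m and H2-K1, of 18380 genes that could be named on the arrays. All 10 genes were found, with 16 probes, and every gene had at least 1 probe well above background on some array. The genes were chosen by their levels on these arrays, so that the levels and their order are given as a description and no test was made.

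Proteasomes cut cytosolic proteins into peptides. When cells receive inflammatory signals such as interferon gamma, the catalytic subunits Psmb8, Psmb9 and Psmb10 replace the constitutive subunits Psmb5, Psmb6 and Psmb7, and the activator subunits Psme1 and Psme2 cap the core. The peptides enter the endoplasmic reticulum through the transporter Tap1-Tap2, tapasin (Tapbp) holds the transporter next to empty class I molecules, and a heavy chain such as H2-K1 is displayed at the cell surface with the light chain B2m. Embryonic stem cells are known for very low class I display, and loss of these genes is common in tumor cells.

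The study asked whether hepatoma cells reprogrammed by fusion regain tumorigenic properties when the hybrids differentiate. One array was made for each of 5 conditions. The ES array was made from cells of the E14 line and the Hepa1-6 array from the mouse hepatoma line of that name. EHe were hybrids of E14 and Hepa1-6 cells, and EHeD7 and EHeD14 were EHe cells differentiated in vitro for 7 and 14 days. By the labels, ES and EHe cells grew with 10% serum replacement, 1% fetal bovine serum and 1000 units/ml leukemia inhibitory factor. The differentiating hybrids were plated as a monolayer on gelatin, in high-glucose DMEM to which 15% fetal calf serum was added, and the same base medium with 10% serum was used for Hepa1-6 cells. By the study's methods the parental lines carried drug resistance and fluorescent marker genes and the hybrids were picked as colonies. Which colony was put on the array is not given in the sources used here. Differentiation and the change of medium cannot be told apart. The 4 arrays other than Hepa1-6 lay on one slide and Hepa1-6 on another, so that slide and line cannot be told apart either.

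Since no condition was repeated, differences are given without an error between samples and without a p-value. Levels are log2 processed signals relative to the array's own 75th percentile, which lay between 1087 signal units in ES and 1456 in Hepa1-6. Repeated spots of 245 probes gave a noise of 0.14 to 0.19 on the log2 scale for a difference between 2 arrays, which leaves out the spread between cultures. Between 54.8% of probes in Hepa1-6 and 67.6% in EHeD7 were well above background, and 30030 of 41174 probes passed on at least 1 array. Of the 16 probes of the set, 13 were well above background in EHe and all 16 on each of the other arrays. The exceptions in EHe were both Psmb8 probes and the Tap2 probe, and a fold against EHe for these genes is a lower bound under the scanner's background correction. It was set at the lowest signal that the array called well above background or, where the gene's own signal was higher, as for Tap2, at that signal. Where a gene had several probes, the lead probe was the one detected on most arrays and then the brightest. The stem cell markers Pou5f1, Sox2 and Zfp42 were all well above background in ES, EHe, EHeD7 and EHeD14 and none was in Hepa1-6. Sox2 and Zfp42 were over 3-fold lower than EHe in both EHeD7 and EHeD14, beside 3.44% of all probes. The median difference of the 3 markers from EHe was -1.79 in EHeD7 and -2.16 in EHeD14 (log2). Of 6 hepatocyte markers, 4 were well above background in Hepa1-6, among them Alb at 6.06 and Afp at 6.77 on the log2 scale. In ES 2 of the 6 were well above background. EHe, EHeD7 and EHeD14 each had 1 of the 6 well above background, which was neither Alb nor Afp.

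By its median, the set was lowest in the undifferentiated hybrids and highest after 14 days of differentiation. For this median, each gene was centred on its own mean and dim values were raised to the detection limit. The median of the 10 genes was -0.88 in ES and -0.05 in Hepa1-6. It went from -1.08 in EHe to 0.79 in EHeD7 and 1.25 in EHeD14 (log2). Taken gene by gene as measured, EHe minus ES had a median of -0.86, with 7 genes lower and 3 higher. Not every gene was lowest in EHe. Hepa1-6 was the lowest array for Psme1, Psme2 and the lead probe of H2-K1. ES was the lowest as measured for Psmb9 and Tap2. For Psmb9 it lay 0.21 below EHe, near the spot noise of 0.19. For Tap2 the EHe signal was not well above background, so that the order of ES and EHe is uncertain. All 10 lead probes were higher in EHeD14 than in EHe, by 1.30 to 8.93 on the log2 scale as measured. EHeD14 had the highest level of the 5 arrays for 8 of 10 genes, all but Tap1 and B2m, while 12.3% of all probes had their highest level there. For 3 of the 8, Psmb10, Psme1 and Psme2, EHeD14 led ES by less than the spot noise of 0.18, and for H2-K1 1 of 3 probes was highest in Hepa1-6. EHeD14 lay above both parents for 9 genes, all but B2m, against 28.4% of all probes. EHeD7 lay between EHe and EHeD14 on the way up for 9 genes, all but Tap1, against 20.5%. EHe lay below both parents for 5 genes, Psmb8, Psmb10, Tap1, Tapbp and B2m, against 22.5%. For B2m this rests on 0.08 below ES, within the spot noise of 0.19, and for Tapbp it held on the lead probe alone. With each array centred on its median, Psmb10 and Tap1 left the group above both parents, which then held 7 genes, and Psmb10 no longer peaked in EHeD14. With that centring Psme1 and Psme2 joined, and B2m left, the group below both parents in EHe, which then held 6. With normexp background correction in place of that centring, Tap2 joined the 5 genes of this group, which also held 6.

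**Figure D1:**
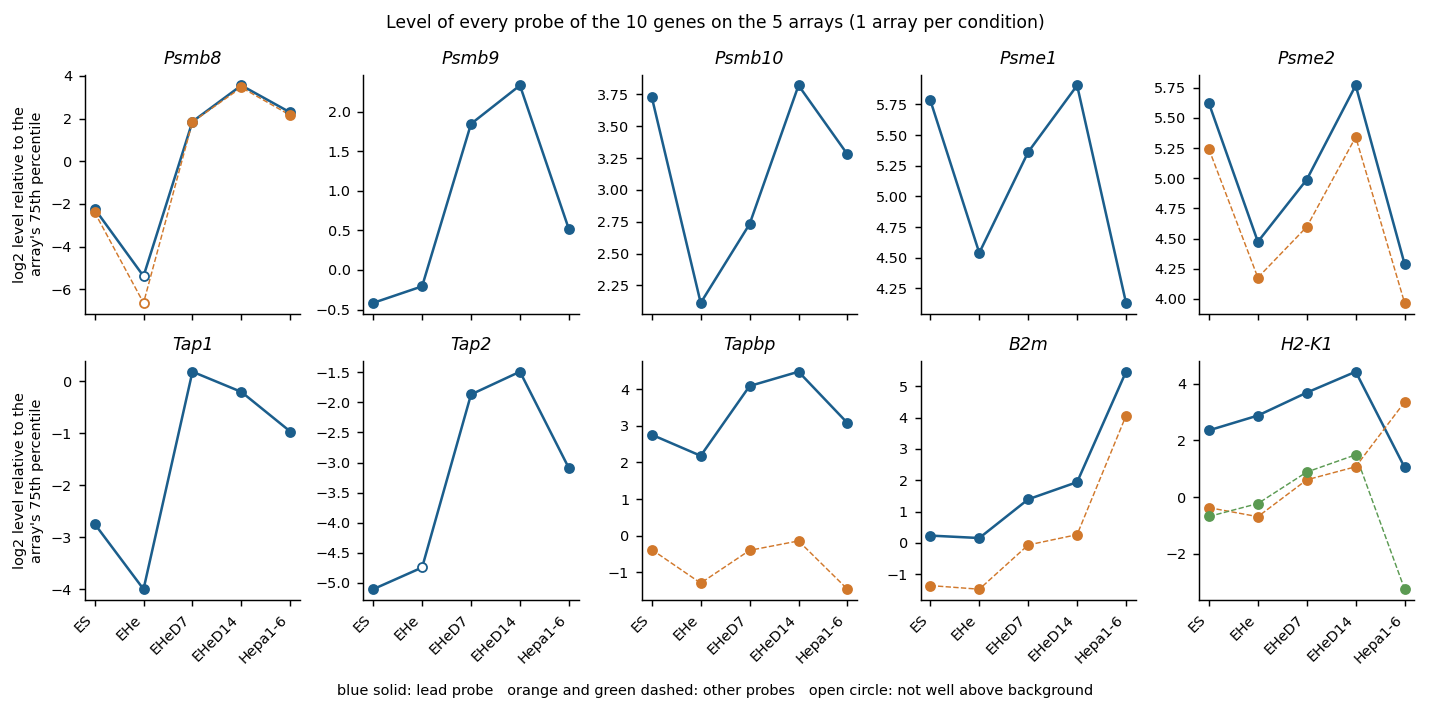
Level of every probe of the 10 genes on the 5 arrays, 1 panel per gene, as the log2 processed signal relative to the array's 75th percentile (the vertical axes differ between panels). Points are single arrays and lines join the points of a probe. Psmb8 in EHe is an open circle because neither probe was well above background there, and B2m alone has both its probes highest in Hepa1-6.

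Several genes of the set are neighbours in the MHC region. The reference sequence in front of 4 genes of the set is shown with short letter matches to motifs of promoter elements. RefSeq promoter windows (GRCm38.p6, 250 bases before to 50 after the start) were at hand for 9 of the 10 genes, all but Tap2. Psmb8, Psmb9, Tap1, Tapbp and H2-K1 lie on chromosome 17, Psme1 and Psme2 on chromosome 14, Psmb10 on chromosome 8 and B2m on chromosome 2. Tap1 and Psmb9 are read in opposite directions from a shared region with 225 bases between their start sites, so that their windows overlap by 275 bases. Capitals mark the letters found, on either strand.
B2m, chr2:122147437-122147736, plus strand: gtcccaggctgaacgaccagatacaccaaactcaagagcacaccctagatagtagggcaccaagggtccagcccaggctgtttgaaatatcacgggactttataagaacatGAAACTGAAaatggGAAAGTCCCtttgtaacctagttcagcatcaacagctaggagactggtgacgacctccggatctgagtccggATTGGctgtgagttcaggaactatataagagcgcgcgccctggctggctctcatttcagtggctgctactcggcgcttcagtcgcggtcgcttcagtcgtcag
H2-K1, chr17:34000284-34000583, minus strand: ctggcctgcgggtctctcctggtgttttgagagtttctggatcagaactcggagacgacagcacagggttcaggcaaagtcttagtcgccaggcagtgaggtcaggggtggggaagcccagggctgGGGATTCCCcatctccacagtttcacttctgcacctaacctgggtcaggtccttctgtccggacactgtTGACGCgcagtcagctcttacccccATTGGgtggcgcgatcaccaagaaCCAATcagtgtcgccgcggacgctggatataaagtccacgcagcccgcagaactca
Psmb8, chr17:34197945-34198244, plus strand: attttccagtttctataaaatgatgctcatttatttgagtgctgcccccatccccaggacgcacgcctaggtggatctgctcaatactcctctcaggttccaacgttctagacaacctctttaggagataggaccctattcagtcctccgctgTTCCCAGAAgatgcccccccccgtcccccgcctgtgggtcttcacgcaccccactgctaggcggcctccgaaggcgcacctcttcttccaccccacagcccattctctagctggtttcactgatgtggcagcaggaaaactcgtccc
Tap1 (shared with Psmb9), chr17:34187306-34187605, plus strand: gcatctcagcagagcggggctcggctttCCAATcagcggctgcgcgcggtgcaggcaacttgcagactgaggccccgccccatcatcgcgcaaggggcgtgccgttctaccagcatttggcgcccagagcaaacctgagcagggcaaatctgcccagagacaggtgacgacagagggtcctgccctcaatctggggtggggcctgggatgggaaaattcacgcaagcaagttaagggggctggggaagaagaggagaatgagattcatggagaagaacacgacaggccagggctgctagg

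The motifs searched were GAAANNGAA (the core of an interferon-stimulated response element, present in 8.56% of 32851 RefSeq promoter windows), TTCNNNGAA (a gamma-activated site, 8.30%), the kappa B forms GGGANTTTC (1.11%) and GGGATTCCC (0.353%), TGACGC (part of a CRE or of the X2 box of class I promoters, 7.40%) and CCAAT (37.4%). The B2m window held GAAANNGAA with its first base at -139 from the start site, followed by GGGANTTTC read on the other strand at -125 and a CCAAT box at -53. The H2-K1 window held GGGATTCCC at -124, TGACGC at -55 and CCAAT boxes at -30 and -6. RefSeq gives H2-K1 another start site whose window holds the same letters. The Psmb8 window held TTCNNNGAA at -97. A single CCAAT box, at -8 from the Psmb9 start and -222 from the Tap1 start, was found in the region that these genes share. Psme1 held GAAANNGAA at 11 bases past its start, Psme2 held TGACGC, Tapbp held 2 CCAAT boxes, and no searched motif was found in the Psmb10 window. These matches describe the letters of the reference sequence, and no binding was measured.

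Among the catalytic subunits, Psmb8 moved farthest. This subunit, also called LMP7, takes the place of Psmb5. Its lead probe read 233 signal units in ES, 7095 in Hepa1-6, 31.05 in EHe, 4740 in EHeD7 and 15654 in EHeD14, of which the EHe value was not well above background. The other probe gave 208, 6485, 13.1, 4688 and 14633 in the same order. EHe was thus below both parents, at least 6.14-fold below ES and at least 140-fold below Hepa1-6 on the lead probe. EHeD7 was at least 104-fold and EHeD14 at least 336-fold above EHe. With normexp background correction, which raises dim signals, these differences were 5.41 and 7.08 on the log2 scale and EHe minus ES was -1.84, smaller than the bounds. At day 14 the level was 54.7-fold above ES and 2.41-fold above Hepa1-6.

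Psmb9, or LMP2, which replaces Psmb6, stood at -0.42 in ES, 0.52 in Hepa1-6, -0.21 in EHe, 1.85 in EHeD7 and 2.33 in EHeD14 (log2 level). ES and EHe were close, 0.21 apart, which is near the spot noise of 0.19 for that pair of arrays. EHeD7 was 4.15-fold and EHeD14 5.82-fold above EHe, and EHeD14 was 3.52-fold above Hepa1-6. Psmb10, or MECL-1, which replaces Psmb7, had another pattern. Its log2 levels were 3.73 in ES, 3.28 in Hepa1-6, 2.11 in EHe, 2.73 in EHeD7 and 3.82 in EHeD14. It was 3.07-fold lower in EHe than in ES, and at day 14 it stood 0.09 above ES on the log2 scale, within the spot noise of 0.18. Relative to Hepa1-6 its EHeD14 value was 0.54 higher, and -0.29 when the arrays were centred on their medians.

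The constitutive subunits did not share this pattern. Psmb5 stood at 6.57 in ES, 4.57 in Hepa1-6, 5.96 in EHe, 5.49 in EHeD7 and 5.74 in EHeD14, and was 3.995-fold lower in Hepa1-6 than in ES. The EHeD14 minus EHe difference was -0.22 for Psmb5, -0.10 for Psmb6 and -0.17 for Psmb7 (log2), against 8.93, 2.54 and 1.71 as measured for Psmb8, Psmb9 and Psmb10. None of the 3 constitutive subunits and none of 11 other subunits of the 20S core lay over 3-fold from EHe at either day. The median of those 11 was 0.07 at day 14, beside -0.06 for all probes kept.

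**Figure D2:**
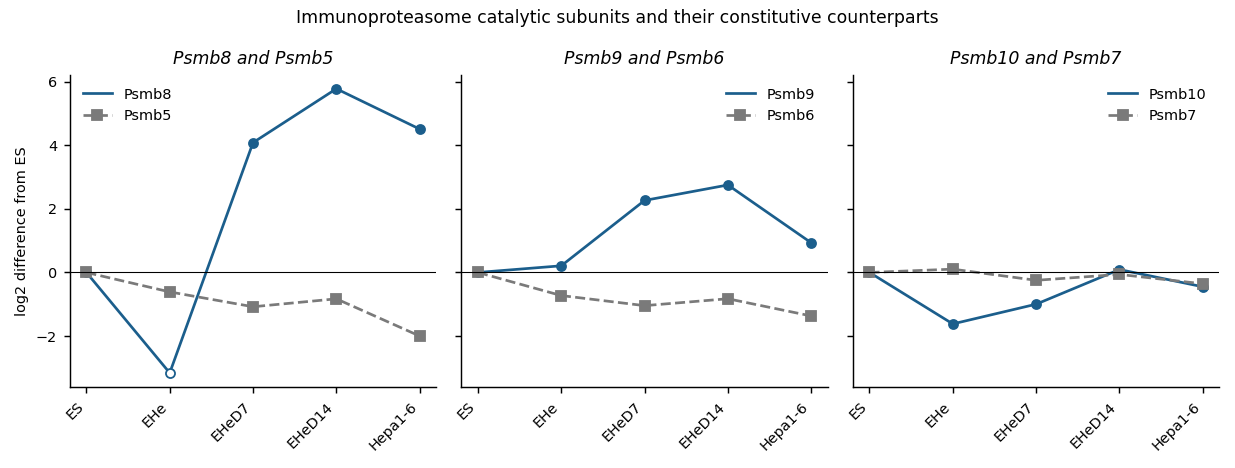
Each immunoproteasome catalytic subunit (blue circles) beside the constitutive subunit it replaces (grey squares), as the log2 difference from the ES array, 1 array per condition. The open circle is Psmb8 in EHe, which was not well above background. Psmb8 and Psmb9 climb at EHeD7 and EHeD14 while Psmb5 and Psmb6 stay below ES, and Psmb10 returns to the ES level at EHeD14.

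The activator subunits Psme1 and Psme2, which form the PA28 ring that opens the core, changed less and together. Psme1 had log2 levels of 5.78 in ES, 4.13 in Hepa1-6, 4.54 in EHe, 5.36 in EHeD7 and 5.90 in EHeD14. The lead probe of Psme2 read 5.62, 4.29, 4.47, 4.99 and 5.77 in the same order. Both genes thus had the order EHeD14, ES, EHeD7, EHe, Hepa1-6 from high to low. EHe was 2.37-fold below ES for Psme1 and 2.21-fold for Psme2, and EHeD14 was 2.57-fold and 2.45-fold above EHe. The other Psme2 probe gave 2.09-fold and 2.24-fold for these comparisons. EHeD14 and ES differed by 0.12 for Psme1 and 0.15 for Psme2, within the spot noise of 0.18, and EHe exceeded Hepa1-6 by 0.41 and 0.19. The latter order turned over, to -0.26 and -0.49, when the arrays were centred on their medians. Of 7 other activators, assembly factors and inhibitors, and of 17 subunits of the 19S regulator, none was over 3-fold from EHe at either day. Psme3, the third member of the PA28 family, differed by 0.17 between EHeD14 and EHe, and Pomp, which matures new proteasomes, by 0.19.

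Both subunits of the peptide transporter were low in both pluripotent cell types. Tap1 read 163 signal units in ES, 746 in Hepa1-6, 80.8 in EHe, 1486 in EHeD7 and 1159 in EHeD14. It was the only gene of the set that was higher at day 7 than at day 14, by 0.39 on the log2 scale. Against EHe it was 18.2-fold higher in EHeD7 and 13.9-fold higher in EHeD14, and EHe lay 2.39-fold below ES and 8.19-fold below Hepa1-6. With normexp these differences shrank to 2.81 and 2.40 for EHeD7 and EHeD14 minus EHe, and to -0.57 and -1.97 for EHe minus ES and EHe minus Hepa1-6 (log2). Tap1 and Psmb9, which share the promoter region shown above, differed between the pluripotent cells: Tap1 was 1.26 lower in EHe than in ES and Psmb9 0.21 higher (log2). Tap2 read 31.5 in ES, 171 in Hepa1-6, 48.1 in EHe, 358 in EHeD7 and 475 in EHeD14, and the EHe value was not well above background. It was at least 7.36-fold higher in EHeD7 and at least 9.57-fold higher in EHeD14 than in EHe, and 12.3-fold higher in EHeD14 than in ES. With normexp the EHeD7 and EHeD14 differences from EHe were 1.79 and 2.00 (log2), smaller than these bounds, and EHe minus Hepa1-6 was -0.89.

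Tapbp, which keeps class I molecules open for peptide, stood at 2.76 in ES, 3.08 in Hepa1-6, 2.18 in EHe, 4.08 in EHeD7 and 4.47 in EHeD14 on its lead probe. The other probe read -0.38, -1.46, -1.29, -0.40 and -0.14. Both were higher in EHeD14 than in EHe, by 4.90-fold on the lead probe and 2.22-fold on the other. They differed on the parents: Hepa1-6 was 0.32 above ES on the lead probe and 1.08 below it on the other. Of 5 measured genes for peptide trimming and loading, Erap1, the aminopeptidase that trims peptides in the endoplasmic reticulum, was over 3-fold higher than EHe at both days, as were 6.28% of all probes. Its fold was 3.21 in EHeD7 and 5.16 in EHeD14, and Hepa1-6 was 13.5-fold above ES. Tapbpl, a relative of tapasin, was 2.49-fold above EHe in EHeD14, and the chaperones Calr and Canx differed by 0.07 and 0.24 (log2).

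B2m stood out by its level in the hepatoma line. The lead probe read 1279 signal units in ES, 64241 in Hepa1-6, 1442 in EHe, 3433 in EHeD7 and 5124 in EHeD14. The other probe, printed 10 times, read 424, 24297, 465, 1251 and 1604, with a spot SD between 0.08 and 0.14 on the log2 scale on each array. Hepa1-6 was 37.5-fold above ES on the lead probe and 42.8-fold on the other. ES and EHe differed by 0.08 and 0.12, within the spot noise of 0.19. EHeD14 was 3.44-fold above EHe on the lead probe and 3.34-fold on the other, and still 11.5-fold and 13.9-fold below Hepa1-6.

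H2-K1 has 3 probes that did not give the same picture. The lead probe, printed 10 times, read 5571 signal units in ES, 3018 in Hepa1-6, 9509 in EHe, 16850 in EHeD7 and 28671 in EHeD14. A further probe had the same order and read 679, 154, 1106, 2416 and 3760.5. The third read 842, 14900, 803, 1999 and 2810, and was thus highest in Hepa1-6. EHeD14 was above EHe on all 3 probes, by 2.92-fold, 3.29-fold and 3.39-fold. Against Hepa1-6 it was 10.4-fold and 26.7-fold higher on the first pair and 4.86-fold lower on the third. Class I heavy chains are near-identical paralogs and the probe sequences were not used here, so that any statement on H2-K1 between Hepa1-6 and the other cells is uncertain. Whether a probe also read a paralog was not tested.

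**Figure D3:**
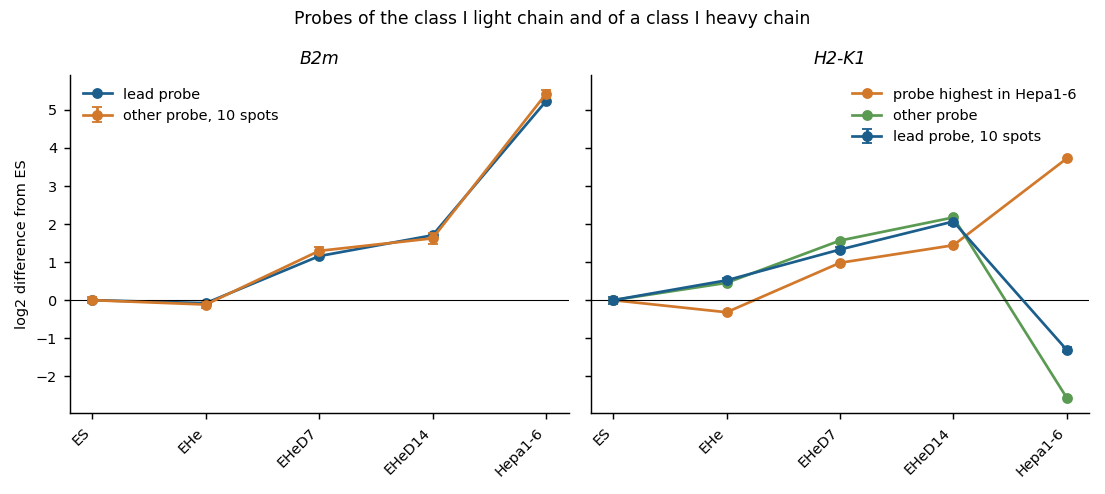
Probes of B2m (left) and H2-K1 (right) as the log2 difference from the ES array, 1 array per condition. Bars are the SD between 10 repeated spots where a probe was printed 10 times. Both B2m probes overlie each other and peak in Hepa1-6, whereas the 3 H2-K1 probes climb together to EHeD14 and then part in Hepa1-6, where 1 of them is 13.2-fold above ES and the others lie below it.

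Other class I and class I-like chains were measured with 17 genes. Against EHe, 3 of them were over 3-fold higher at both days: H2-Q1, H2-Q8 and H2-T22, which were 6.82-fold, 6.96-fold and 6.88-fold higher in EHeD14, against 6.28% of all probes. In EHeD14 alone 7 of the 17 were over 3-fold higher as measured, adding H2-Q4, H2-Q7, H2-T24 and H2-M3, of which H2-T24 was not well above background in EHe, beside 8.19% of all probes. Cd1d1, which presents lipids, and Fcgrt, the neonatal Fc receptor, were over 3-fold lower at both days, by 5.79-fold and 4.17-fold in EHeD14, against 3.44% of all probes. The median of the 17 genes was 1.38 in EHeD14 minus EHe and 2.96 in Hepa1-6 minus ES (log2), where 11 were over 3-fold higher and 2 lower, beside 14.3% and 25.3% of all probes. H2-D1, the other classical heavy chain, stood at 1.59 in ES, 5.04 in Hepa1-6, 1.94 in EHe, 2.89 in EHeD7 and 3.32 in EHeD14. It was 2.60-fold higher in EHeD14 than in EHe. The same reservation on paralogs holds for these chains.

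Set against single steps, the 10 genes were counted past the 3-fold threshold of the study beside all probes kept. These counts come from the values by which the genes were chosen, and nothing is read from them. EHeD7 minus EHe had 5 genes higher (Psmb8, Psmb9, Tap1, Tap2 and Tapbp) and 0 lower, where 7.99% of all probes were higher and 4.21% lower. EHeD14 minus EHe added Psmb10 and B2m, with 7 genes higher and 0 lower, against 8.19% and 4.65%. The median of the 10 genes was 1.57 and 2.04 for these steps, beside -0.08 and -0.06 for all probes. Both steps share the EHe array. Between EHeD14 and EHeD7 only Psmb8 passed, 3.23-fold higher, and 0 genes were lower, against 1.25% and 1.43%.

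For the fusion itself, 0 genes were over 3-fold higher in EHe than in ES and 2 were lower (Psmb8 and Psmb10), against 3.68% and 5.65% of all probes. Psmb10 lay near the threshold, and fell short of it under quantile normalization and with median centring. Against Hepa1-6, EHe had 1 gene higher (H2-K1, on its lead probe) and 4 lower (Psmb8, Tap1, Tap2 and B2m), against 21.7% and 14.0%. Between the parents, Hepa1-6 minus ES had 4 higher (Psmb8, Tap1, Tap2 and B2m) and 1 lower (Psme1), against 14.3% and 25.3%. EHeD14 minus Hepa1-6 had 4 higher (Psmb9, Psme1, Tap2 and H2-K1) and 1 lower (B2m), against 22% and 12.7%. With median centring only 1 gene was over 3-fold higher in this last comparison.

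**Figure D4:**
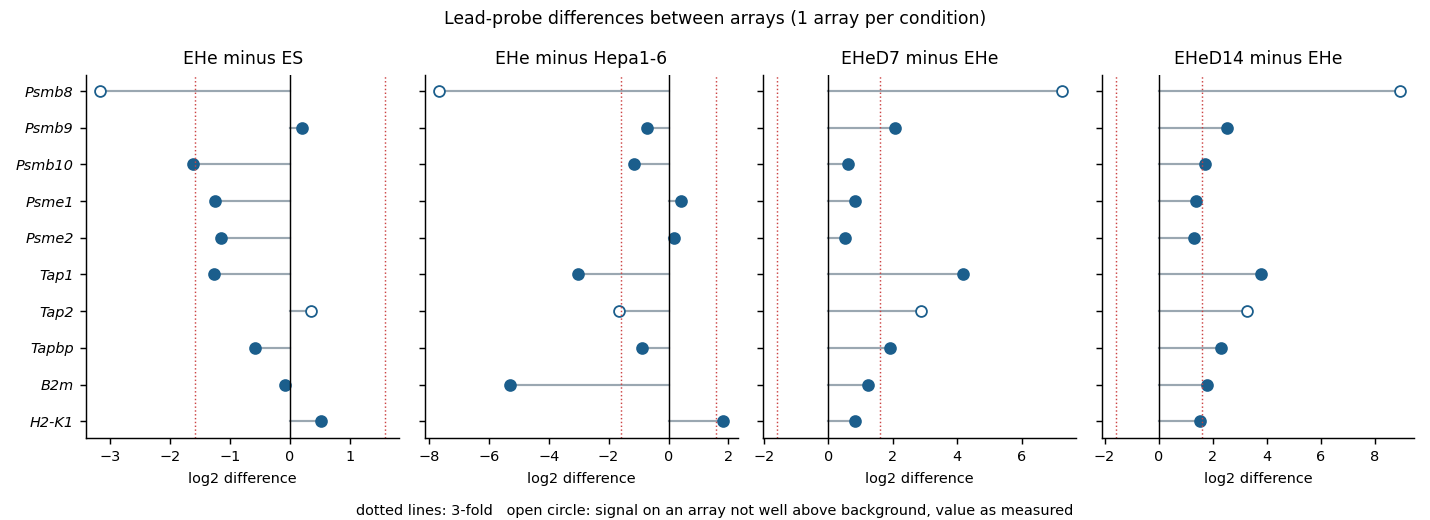
Log2 differences of the lead probe of each of the 10 genes for 4 comparisons of single arrays (the horizontal axes differ between panels). Dotted lines mark 3-fold, and open circles mark a difference in which an array was not well above background, drawn as measured. All 10 genes lie right of 0 in EHeD7 minus EHe and EHeD14 minus EHe, and 7 of 10 lie left of 0 in EHe minus ES.

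Of the factors known to control these genes, 13 were measured above background somewhere, and 2 of them, Irf2 and Irf8, were over 3-fold higher than EHe at both days, beside 6.28% of all probes. Irf8 stood at -3.61 in ES, 2.10 in Hepa1-6, -3.46 in EHe, -0.19 in EHeD7 and -0.09 in EHeD14, so that EHeD14 was 10.4-fold above EHe. Irf2 was not well above background in ES and EHe and was at least 4.12-fold higher in EHeD14 than in EHe. Irf1, an activator that binds interferon-response elements, stood at 3.35 in ES, 2.66 in Hepa1-6, 2.63 in EHe, 3.40 in EHeD7 and 4.32 in EHeD14. It was 3.23-fold higher in EHeD14 than in EHe.

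Nlrc5, the transactivator of class I genes, was dim throughout, with log2 levels of -4.78 in ES, -5.22 in EHeD7, -4.68 in EHeD14 and -2.89 in Hepa1-6, and was not well above background in EHe. Its EHeD14 level was at least 1.12-fold above EHe. Neither Ifng nor Ifnb1 was well above background on any array. Of 6 measured genes of the interferon receptors and their kinases, none was over 3-fold from EHe at both days. Ifngr2 was 3.14-fold higher in EHeD7 than in EHe. Ifngr2, Jak2 and Ifngr1 were 2.84-fold, 2.67-fold and 1.63-fold higher in EHeD14 than in EHe. The median of all 6 for this comparison was 0.49, beside -0.06 for all probes kept (log2).

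The class II pathway, which presents peptides taken up from outside the cell, was set beside class I. Of 7 measured genes none was over 3-fold higher and 1, the class II transactivator Ciita, was over 3-fold lower than EHe at both days, by 3.96-fold in EHeD14, beside 3.44% of all probes. The step from ES to EHe was different, with 6 of the 7 genes over 3-fold higher in EHe and a median of 2.06 (log2), beside 3.68% of all probes higher. H2-Oa stood at -2.72 in ES, 2.46 in EHe, 3.17 in EHeD7 and 3.02 in EHeD14 and was not well above background in Hepa1-6. The class I set had a median of -0.86 for this step and 0 genes higher.

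**Figure D5:**
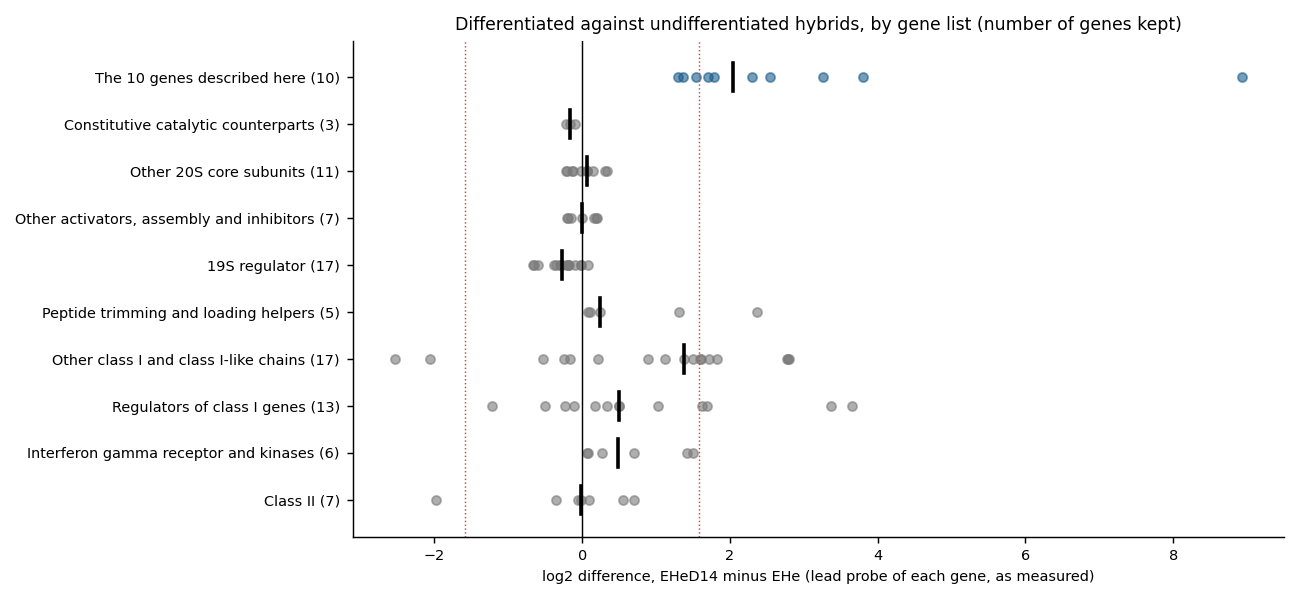
Log2 differences of EHeD14 minus EHe for the lead probes of the 10 genes (blue) and of 9 lists of related genes (grey), with the number of genes kept in brackets. Black bars are list medians and dotted lines mark 3-fold. The 10 genes, which were chosen on these arrays, have a median of 2.04, and the 19S regulator list has a median of -0.28.

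In RNA from whole cultures, fewer cells of a type and less RNA per cell cannot be told apart, so other cell types were followed through their markers. Fibroblast markers were higher by their median in EHeD7 and EHeD14 than in EHe, as the set was. In Hepa1-6 minus ES, 4 of the 6 fibroblast markers were over 3-fold lower, beside 25.3% of all probes. Their median for this comparison was -2.71 and that of the set was 0.63 (log2). Hepa1-6 is a separate line, so this comparison does not describe which cells the hybrid cultures held. All 6 (Col1a1, Col1a2, Col3a1, Thy1, Pdgfra and Pdgfrb) were over 3-fold higher in EHeD14 than in EHe as measured, and 6 of 6 were well above background in EHeD7 and EHeD14, 5 in ES, 4 in EHe and 2 in Hepa1-6. Their summed level was 0.81 in ES, -2.21 in Hepa1-6, -0.02 in EHe, 2.29 in EHeD7 and 2.44 in EHeD14 (log2). Their part in the levels of the 10 genes was not tested. Markers of leukocytes and antigen-presenting cells had a summed level of 0.05 in ES, -1.90 in Hepa1-6 and 0.04 in EHe, and of -1.18 in EHeD7 and -1.60 in EHeD14, lower after differentiation. Of these 9 markers, 5 were well above background in ES, 3 in Hepa1-6 and 4 each in EHe, EHeD7 and EHeD14. Only Itgam and Laptm5 were over 3-fold lower than EHe at both days, beside 3.44% of all probes. Ptprc, the pan-leukocyte marker, was not well above background on any array. Of 4 endothelial markers, 2 were well above background in ES, 0 in Hepa1-6, 1 in EHe, 2 in EHeD7 and 1 in EHeD14. Their summed level was -0.22 in ES, -5.15 in Hepa1-6 and -1.23 in EHe, and -3.57 in EHeD7 and -3.94 in EHeD14 (log2), lower after differentiation. Of the 2 endothelial markers that passed on at least 1 array, Pecam1 alone was over 3-fold lower than EHe at both days, beside 3.44% of all probes.

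The genes of the set differed in how closely they kept to the common profile. The root-mean-square distance from the median profile of the set, over 5 arrays with dim values raised to the detection limit, was 0.17 for Tapbp and 0.25 for Psmb9, and 1.86 for B2m and 2.36 for Psmb8 (log2). Among 15506 other named genes, the 5 nearest to the median profile were Igtp (0.14), Gpc4 (0.14), Pak1 (0.20), Cblc (0.21) and Pmp22 (0.21). Igtp, an interferon-inducible GTPase, stood at -0.73 in ES, 0.11 in Hepa1-6, -1.04 in EHe, 0.68 in EHeD7 and 1.55 in EHeD14. Gpc4, a cell-surface proteoglycan, stood at 0.15, 0.85, -0.22, 2.05 and 2.16 in the same order. These likenesses describe 5 arrays.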

How the data were processed

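RNA of 5 conditions was labelled and hybridized to Agilent mouse arrays read in 1 colour, 1 array each. The dye was Cy3 by the labels and Cy5 by the study's methods, and differentiation was in monolayer or in embryoid bodies, respectively. Per the file headers and labels the authors deposited the output of Feature Extraction 10.7.3.1, with each spot's processed signal, an intensity from which this software had already subtracted background and spatial trends, and the median signal and local background intensity. The values of the deposited series table were identical to it (largest relative difference 0). No value had been normalized between arrays. The software also called each spot as control, outlier, saturated or well above background.

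Control spots and outlier spots (73 in EHe to 174 in Hepa1-6) were left out, and no spot was saturated. Signals were shifted by each array's 75th percentile on the log2 scale, and repeated spots were averaged. Probes were named through RefSeq accessions (26888) or the study's list of genes (148), and 14138 stayed unnamed. Samples were grouped by their titles. The 10 genes and all lists were chosen with earlier results of these data known. All 10 genes are named, and of each list the 3 genes at most with the largest difference among those over 3-fold from EHe at both days, the constitutive catalytic subunits, Nlrc5 and Irf1. Other genes named for comparison, among them Cd1d1 and Fcgrt, were chosen after their values were seen. Values of a gene that this rule also named are left out. The steps were tested on simulated data. With 1 array each there is no test, and the number of arrays limits the precision. Alternatives were normexp background correction (offset 50, on the median signal), quantile normalization, median centring, the series table, outlier spots kept, a floor for dim values at the detection limit, the mean of a gene's probes and a 2-fold threshold. The analysis ran in R 4.3.3 with limma 3.58.1 and in Python 3.11.15 with pandas 2.3.3, numpy 2.4.6 and matplotlib 3.10.9.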

Additional observations from a re-analysis of the deposited data

How the results depend on the processing

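No paired analysis was possible because none of the conditions was repeated. Of 112 counts of genes past the threshold recomputed under an alternative, 100 stayed within 1.5 times the value reported and 12 did not. In Hepa1-6 minus ES the 4 higher genes became 2 with normexp, and the 1 lower gene became 0 with quantile normalization, 0 with median centring and 3 at 2-fold. In EHe minus ES the 2 lower genes became 1 with quantile normalization, 1 with median centring and 5 at 2-fold. In EHe minus Hepa1-6 the 1 higher gene became 0 with median centring and 0 with the mean of a gene's probes. In EHeD14 minus EHeD7 the 1 higher gene became 2 at 2-fold. In EHeD14 minus Hepa1-6 the 4 higher genes became 1 with median centring and 7 at 2-fold. The cause was not tested, except that the 2-fold threshold admits more genes by construction. Median centring moved the median of all probes from -0.40 to 0.39 in Hepa1-6 minus ES and from 0.29 to -0.54 in EHeD14 minus Hepa1-6 (log2). The median of the 10 genes ranged from 1.36 to 1.67 in EHeD7 minus EHe, from 1.74 to 2.11 in EHeD14 minus EHe, from -0.92 to -0.50 in EHe minus ES and from 0.61 to 1.44 in EHeD14 minus Hepa1-6. Of 490 differences of single genes, 403 moved by less than the spot noise and 87 by more, and none past 3-fold changed sign. Psmb8 and Tap2 in EHe are limited by signal over background.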
